A study of Mus musculus with 22 samples.

Results

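The unsorted wild-type mpkCCD cells are the 6 of the 22 RNA-seq libraries of the series that came from cells without a reporter and without sorting: 3 libraries labelled as given no dDAVP (control 1 to 3) and 3 labelled as given dDAVP (dDAVP 1 to 3). They were found by the column names of the deposited expression table. mpkCCD is an immortalised mouse cortical collecting duct line, here the secondary clone mpkCCDC11-38, grown on permeable transwell supports. All 6 libraries share the culture described in the protocols: 4 days in a complete medium with hormones and serum, then a serum-free medium that still held 50 nM dexamethasone, a synthetic glucocorticoid. Vehicle or dDAVP (0.1 or 1 nM) was applied basolaterally and left for 24 or 48 hours; the protocols do not say which dose and time belong to which library. The labels of the control libraries read as untreated. Nothing in the labels says that the replicates were separate cultures, so p-values here measure only the spread between these libraries, which may be technical. The line is 1 clone of immortalised cells that carry the large T antigen of a simian virus, and it stands for neither a mixed nor an intact collecting duct.

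dDAVP (desmopressin) is a synthetic analogue of vasopressin that acts on the V2 receptor of collecting duct principal cells. The receptor couples through Gs to adenylyl cyclase, cyclic AMP (cAMP) activates protein kinase A (PKA), and PKA phosphorylates transcription factors of the CREB family as well as the water channel aquaporin-2. Over minutes the pathway moves aquaporin-2 to the apical membrane, and over hours to days it raises transcription of Aqp2, which lets the duct take up water.

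Expression is given as TPM, reads divided by transcript length and scaled to the same total in each library, so the sequencing depth behind each value is unknown. Between 12574 and 14082 genes per library had a TPM of at least 1, and between 20014 and 31292 had a TPM above 0. Libraries of the same group correlated at 0.964 to 0.976 and libraries of different groups at 0.948 to 0.972 (Pearson's r across genes, on log2(TPM + 1)), so the ranges overlapped. Principal cell markers were present, with Avpr2 at 172 to 282 TPM, Gata3 at 188 to 267 TPM and Fxyd4 at 236 to 577 TPM over the 6 libraries, but Aqp3 reached only 3.75 TPM and Scnn1b only 0.70 TPM. Of the 20 intercalated cell markers, 9 reached 1 TPM in a library and their summed level was 383 to 408 TPM in control and 403 to 420 TPM in dDAVP libraries. The defining ones Slc4a1, Slc26a4, Foxi1 and Atp6v0d2 stayed at or below 0.32 TPM, while Atp6v1b1 lay between 40.8 and 63.8 TPM. The 10 fibroblast markers summed to at most 1.45 TPM. The 12 proximal tubule markers summed to 5.37 to 17.2 TPM, most of it Lrp2, and were at 10.3 to 17.2 TPM in control and 5.37 to 11.2 TPM with dDAVP. The 8 endothelial markers summed to 52.2 to 58.1 TPM in control and 64.5 to 67.2 TPM with dDAVP, with the defining Pecam1, Cdh5 and Kdr at or below 1.00 TPM, and the 8 thick limb and distal tubule markers to 1.30 to 4.91 TPM. The 9 immune markers summed to 13.8 to 22.1 TPM, with Ptprc, Lyz2 and Cd3e at or below 1.08 TPM. In RNA from bulk cultures, a change in the number of cells that express a gene and a change in RNA per cell cannot be told apart.

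Of 13494 genes averaging 1 TPM or more, 1198 (8.88%) passed an adjusted p under 0.05 (limma on log2(TPM + 1), two-sided, Benjamini-Hochberg). These called genes were 320 higher with dDAVP (2.37% of genes tested) and 878 lower (6.51%). The balance of directions depended on the scaling. The median of all genes tested was shifted by -0.16 on the log2 scale in the deposited TPM, and 3871 genes (28.7%) were lower in every dDAVP library than in every control library against 961 (7.12%) that were higher in every one. Median-ratio scaling brought the median to 0.00 and turned the calls into 451 higher and 306 lower. Quantile normalization gave 438 higher and 372 lower, and a correction of each library for transcript length and GC content gave 611 higher (4.53%) and 411 lower (3.05%). No gene called in the deposited TPM was called in the opposite direction under another of these scalings. A gene is described below as called under all 5 scalings where it passed in the same direction in the deposited TPM, under median-ratio and quantile scaling, and after the correction with either the median or the longest transcript of each gene. That held for 265 genes that were higher (1.96%) and 214 that were lower (1.59%). Leaving out 1 library moved the count of called genes to 418 without control 1, 375 without control 2, 314 without control 3, 460 without dDAVP 1, 2038 without dDAVP 2 and 325 without dDAVP 3. With the replicate number added to the fit as a block, 122 genes were called, 98 higher and 24 lower. The lists below were chosen with earlier results of these data known, so their counts are no independent support for a response.

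Aqp2, the known target of the hormone, was the largest rise. The gene (Ensembl ENSMUSG00000023013; chromosome 15, 99579055 to 99584547, GRCm38) lay at 64.1, 74.9 and 68.4 TPM in the control libraries and at 2820.2, 3025 and 2759 TPM in the dDAVP libraries. Its log2 change was 5.36 ± 0.08 (SE, n = 3 and 3; limma adjusted p = 1.70e-07), a 41.5-fold ratio of mean TPM. The exact two-sided permutation test over the 20 arrangements of libraries gave p = 0.1, the smallest value that 3 against 3 allows.

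The rises beyond Aqp2 were larger than the falls. The 10 largest rises among called genes averaging 5 TPM or more ran from 2.22 to 4.31 on the log2 scale, and the 10 largest falls from -1.80 to -1.16. Cited1, a coactivator that binds CBP and p300 and is known from kidney development, went from 1.04, 1.25 and 0.70 TPM in control to 39.6, 37.5 and 38.3 TPM with dDAVP (log2 change 4.31 ± 0.14 SE, limma adjusted p = 2.91e-05). Cited1 was thus nearly silent in every control library and at about the same level in every dDAVP library. Baiap2l2, an I-BAR protein that binds actin at microvilli, rose from 6.39 to 11.7 TPM to 85.8 to 110.5 TPM, and Spink8, a Kazal-type serine protease inhibitor, rose from 9.30 to 14.3 TPM to 96.7 to 109.2 TPM. Cebpd, the transcription factor C/EBP-delta, had 2.82, 3.69 and 3.73 TPM in control and 31.0, 28.4 and 28.8 TPM with dDAVP (log2 change 2.79). B3gnt7, which elongates N-acetyllactosamine chains on glycoproteins, rose from 25.9 to 33.6 TPM to 164 to 229 TPM, and Ramp3, a partner protein of the calcitonin-receptor family, from 0.98 to 1.41 TPM to 10.6 to 12.9 TPM. Sprr2g, a small proline-rich protein of the cornified envelope whose close relatives may share reads with it, rose 4.76-fold. All 10 rises were called under all 5 scalings and with each library left out in turn.

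**Figure D1:**
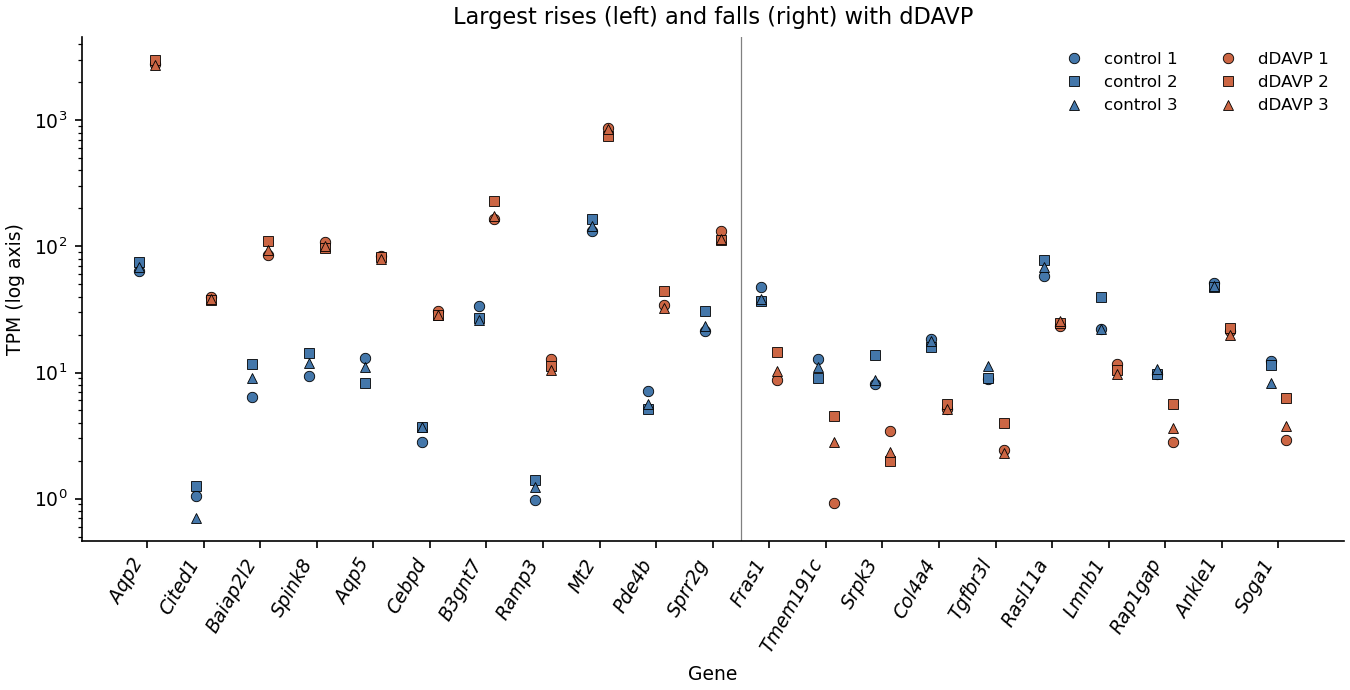
TPM (log axis) of Aqp2, the 10 largest rises and the 10 largest falls with dDAVP in each of the 3 control (blue) and 3 dDAVP (red) libraries; each point is 1 library. The groups do not overlap for any of these genes, which the choice of genes required; Cited1 lies between 0.70 and 1.25 TPM in control and between 37.5 and 39.6 TPM with dDAVP.

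Among the largest falls, Fras1 and Col4a4 encode parts of the basement membrane and are described with that group. Rasl11a, a small GTPase of the Ras family, fell from 58.6, 78.2 and 68.8 TPM to 23.3, 24.8 and 25.4 TPM (log2 change -1.44 ± 0.12 SE, limma adjusted p = 0.00101), and Ankle1, a nuclease with ankyrin repeats, from 47.7 to 51.0 TPM to 19.8 to 22.4 TPM (log2 change -1.17). Srpk3, a kinase of SR splicing proteins, fell from 8.18 to 13.9 TPM to 1.98 to 3.41 TPM, and Tgfbr3l from 8.85 to 11.3 TPM to 2.32 to 4.00 TPM. These 4 kept the call with each library left out. Srpk3 and Tgfbr3l lost it with the replicate block (limma adjusted p = 0.0789 and 0.0653). Lmnb1, which encodes lamin B1 of the nuclear envelope, fell by 1.27 on the log2 scale; it was not called under all 5 scalings, and it lost the call without dDAVP 1 or dDAVP 3. Tmem191c, Rap1gap and Soga1 fell by 1.79, 1.18 and 1.16 on the log2 scale, and each lost the call without any 1 of the 3 control libraries or without dDAVP 3 (Soga1 also without dDAVP 1).

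Of the genes of the V2 receptor cascade, the receptor itself was the 1 called higher. Avpr2, the V2 receptor, had 172, 183 and 172 TPM in control and 260.5, 282 and 244 TPM with dDAVP (log2 change 0.57 ± 0.08 SE, limma adjusted p = 0.00722), and it was called under all 5 scalings and with each library left out. With the replicate block its call was lost (limma adjusted p = 0.0653). Of the 26 tested genes of the list of V2 receptor, Gs, adenylyl cyclase and PKA genes, Avpr2 was called higher and 2 were called lower, 3.85% and 7.69% of the list against 2.37% and 6.51% of all genes tested. Without 1 library the number lower ran from 0 (without control 3) to 8 (without dDAVP 2). Arrb2, beta-arrestin 2, which uncouples and internalises receptors, fell from 31.4, 28.1 and 29.8 TPM to 19.0, 14.9 and 13.7 TPM (log2 change -0.88, limma adjusted p = 0.0109; 0.0509 without control 3). Prkacb, a catalytic subunit of PKA, fell by 0.57 on the log2 scale in the deposited TPM but was not called under all 5 scalings, and kept the call in 1 of the 6 fits without a library. Gnas (Gs alpha; log2 change -0.17, adjusted p = 0.142), Adcy6 (adenylyl cyclase; -0.20, adjusted p = 0.440), Prkaca (-0.24, adjusted p = 0.100) and Prkar1a (0.07, adjusted p = 0.631) did not pass the limma test. The median of the list was -0.07 against that of all genes.

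Pde4b, a phosphodiesterase that breaks down cAMP, rose from 7.20, 5.11 and 5.63 TPM to 34.1, 43.9 and 32.3 TPM (log2 change 2.43 ± 0.16 SE, limma adjusted p = 0.00034). Of the 8 phosphodiesterase genes tested, 2 were called higher (2.37% of all genes tested were) and none lower, the other being Pde4a, from 5.00 to 6.68 TPM to 8.15 to 10.6 TPM (adjusted p = 0.0455). Pde4b kept its call with each library left out and Pde4a lost it in all 6 such fits. Pde4d had a log2 change of 0.41 (adjusted p = 0.275), with overlapping groups.

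Genes known to respond to cAMP and CREB moved in both directions. Of 26 tested, 9 were called higher and 4 lower (2.37% and 6.51% of all genes tested), 8 and 3 of them under all 5 scalings, and the list's median change was 0.23 above that of all genes. Leaving out 1 library left 5 to 9 higher and 3 to 5 lower. Beside Cited1 and Pde4b, the genes called higher included Crem, whose short isoforms act as a brake on CREB targets, from 11.2, 11.6 and 12.9 TPM to 31.1, 27.4 and 34.1 TPM (log2 change 1.30 ± 0.11 SE, limma adjusted p = 0.0013). The orphan nuclear receptor Nr4a2 rose from 24.1 to 29.0 TPM to 42.7 to 52.4 TPM, and Rgs2, which speeds up GTP hydrolysis on G proteins, from 4.65 to 6.18 TPM to 8.80 to 10.1 TPM. Rasd1, a Ras-related protein induced by dexamethasone, rose from 14.2, 15.5 and 15.7 TPM to 23.9, 28.2 and 25.4 TPM. Nr4a2 lost the call without control 3 and Rgs2 in 4 of the 6 fits without a library. Akap12, a scaffold that anchors PKA, had 223 to 262 TPM in control and 308 to 409 TPM with dDAVP (limma adjusted p = 0.0362), and was called neither under all 5 scalings nor in 5 of the 6 fits without a library.

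The falls in the same list were of immediate early genes and a phosphatase. Fos fell from 4257, 4052 and 3838 TPM to 2267, 2815 and 2500.4 TPM (log2 change -0.68 ± 0.09 SE, limma adjusted p = 0.00722). Fosb fell from 55.4 to 72.4 TPM to 32.8 to 38.8 TPM, and Dusp1, a phosphatase that turns off MAP kinases, from 1334, 1340.4 and 1351 TPM to 826, 881 and 839 TPM (log2 change -0.66, adjusted p = 0.0013). Fos, Fosb and Dusp1 were called under all 5 scalings and with each library left out. With the replicate block Dusp1 kept its call, and Fos and Fosb lost theirs (limma adjusted p = 0.0672 and 0.0819). In the wider list of 28 immediate early genes, 8 were called lower (6.51% of all genes tested were) and 1 higher (Nr4a2), but only 2 of the 8, Fos and Fosb, under all 5 scalings. Median-ratio scaling gave 3 higher and 2 lower (3.34% and 2.27% of all genes tested) and quantile normalization 1 and 9 (3.25% and 2.76%). The length and GC correction gave 3 and 3 by the median transcript (4.53% and 3.05%) and 2 and 5 by the longest (5.08% and 3.44%). Without 1 library the number called lower ran from 2 (without dDAVP 1 or dDAVP 3) to 10 (without dDAVP 2). Jun was at 2911 to 3056 TPM in control and 2316 to 2576 TPM with dDAVP, and Atf3 at 1698 to 1888 TPM and 1295 to 1382 TPM, both below the control range in every dDAVP library. Neither was called under all 5 scalings, and they kept the call in 1 (Jun) and 3 (Atf3) of the 6 fits without a library.

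To show what the promoters of these genes hold, the RefSeq promoter windows (250 bases before to 50 after each start, GRCm38.p6) were searched on both strands for the cAMP response core TGACG, which the full element TGACGTCA also contains. The stretches below lie before the start, in the direction of transcription, with each match in capitals (CGTCA is the same core on the other strand). They are given for Aqp2 and for Cited1, Pde4b and Nr4a2, called members of the cAMP list with a match.
Aqp2, chr15:99578815-99578879, plus strand: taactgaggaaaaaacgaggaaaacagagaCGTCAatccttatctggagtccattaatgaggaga
Cited1, chrX:102250777-102250839, minus strand: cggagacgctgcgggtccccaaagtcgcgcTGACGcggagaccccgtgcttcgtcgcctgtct
Pde4b, chr4:102421491-102421554, plus strand: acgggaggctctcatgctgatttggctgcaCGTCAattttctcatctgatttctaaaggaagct
Nr4a2, chr2:57124080-57124233, minus strand: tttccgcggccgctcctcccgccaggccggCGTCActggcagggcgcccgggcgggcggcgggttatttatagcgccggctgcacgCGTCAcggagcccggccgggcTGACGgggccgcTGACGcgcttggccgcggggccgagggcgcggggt
The match begins 211 bases before the start in Aqp2, 33 in Cited1 and 34 in Pde4b, and Nr4a2 has 4 matches. RefSeq lists 3 starts for Cited1 and 4 for Pde4b, and the stretch shown belongs to the 1 start of each with a match before it. The core was present in 17 of the 21 genes of the cAMP list with a promoter entry (81.0%), against 3446 of 9434 genes tested (36.5%). Among the genes called higher under all 5 scalings it was present in 74 of 200 (37.0%), and among those called lower in 47 of 161 (29.2%). The full element was in 4 of those 200 (2.00%) and in 3.72% of genes tested. The cAMP list was drawn up from known targets, with earlier results of these data known. Its share therefore describes the list and not the response, and a match is a stretch of letters, not a shown binding site.

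Water and ion transport genes moved in both directions. Aqp5, a water channel gene 6234 bases downstream of Aqp2 on chromosome 15, rose from 13.0, 8.21 and 11.0 TPM to 83.4, 82.1 and 79.8 TPM (log2 change 2.84 ± 0.15 SE, limma adjusted p = 0.000145). It was the gene called among the 4 tested of the other aquaporins and urea transporters; Aqp3 (log2 change -0.03, adjusted p = 0.969) and Aqp4 (0.58, adjusted p = 0.307) had overlapping groups. Of 22 sodium reabsorption genes, 3 were called higher and 2 lower (2.37% and 6.51% of all genes tested); without 1 library 2 to 4 were higher, and none was lower in 5 of the 6 fits. Fxyd4, a regulator of the sodium pump, rose from 236, 278 and 260.4 TPM to 577, 536 and 505 TPM (log2 change 1.06, adjusted p = 0.00102), and Usp2, a deubiquitinase that acts on the epithelial sodium channel, from 62.3 to 76.0 TPM to 114 to 134 TPM. Both were called under all 5 scalings and with each library left out. Atp1b1, the beta subunit of the sodium pump, rose from 438 to 473 TPM to 588 to 639 TPM in the deposited TPM. Its call was lost with quantile normalization (limma adjusted p = 0.138) and without control 2, control 3 or dDAVP 3. Scnn1a and Scnn1g, the alpha and gamma subunits of the epithelial sodium channel, were lower in every dDAVP library (Scnn1a 192 to 243 TPM in control and 128 to 174 TPM with dDAVP; Scnn1g 23.2 to 28.4 TPM and 13.3 to 19.0 TPM). Their calls (adjusted p = 0.0435 and 0.0295) failed under at least 1 of the other scalings and in 5 of the 6 fits without a library. Kcnq1, a potassium channel, rose from 26.6 to 28.6 TPM to 39.0 to 53.4 TPM, and Slc12a4, a potassium-chloride cotransporter, fell from 27.7 to 33.9 TPM to 15.6 to 20.5 TPM. Both were called under all 5 scalings and in 2 (Kcnq1) and 1 (Slc12a4) of the 6 fits without a library.

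In the list of 45 vesicle traffic genes, 3 were called higher and 2 lower (2.37% and 6.51% of all genes tested). None was called lower under the other 4 scalings or in 5 of the fits without a library, and 6 were without dDAVP 2. Rab11a, the small GTPase of the recycling endosome that aquaporin-2 passes through, rose from 195, 217 and 225 TPM to 377, 348 and 328 TPM (log2 change 0.72 ± 0.08 SE, limma adjusted p = 0.00473). Rab4a, of the fast recycling route, rose from 45.6, 46.1 and 46.6 TPM to 70.6, 76.0 and 70.4 TPM. Both kept their calls under all 5 scalings and with each library left out, but not with the replicate block (limma adjusted p = 0.0653 for each). The list's median was within 0.03 of that of all genes.

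Of 7 keratin genes tested, 5 were called higher and none lower, 4 of them under all 5 scalings (2.37% and 1.96% of all genes tested). Krt23 went from 21.0, 20.3 and 19.4 TPM to 74.7, 87.6 and 79.4 TPM (log2 change 1.94 ± 0.09 SE, limma adjusted p = 8.03e-05) and Krt19 from 549, 662 and 674 TPM to 1271, 1249.5 and 1201 TPM (log2 change 0.99). Krt18, the most abundant of them, rose from 5507 to 5933 TPM to 8739.6 to 9154 TPM, and Krt8, its partner, from 2161 to 2314 TPM to 2956 to 3100 TPM; Krt18 was not called under all 5 scalings. Of 21 genes of desmosomes, adherens junctions and keratins, 5 were called higher, all of them keratins, and 2 lower (6.51% of all genes tested were), the desmosomal Dsc2 and Evpl, neither under all 5 scalings; they kept the call in 4 and 1 of the 6 fits without a library, and 5 were lower without dDAVP 2. In the list of 26 tested principal cell genes without Aqp2, 6 were called higher and 1 lower (Scnn1g), against 2.37% and 6.51% of all genes tested, and the number higher stayed at 6 with each library left out. The list's 6 are Avpr2, Fxyd4, the keratins Krt8, Krt18 and Krt19, and Ptges, which makes prostaglandin E; the latter rose from 5.04 to 10.5 TPM to 24.7 to 25.9 TPM. The transcription factors of the list that define the lineage did not pass, with Gata3 at -0.05 (limma adjusted p = 0.819) and Elf3 at 0.28 (limma adjusted p = 0.0917). The principal cell list's median was 0.17 above that of all genes. That of the 8 intercalated cell markers tested was 0.33 above, with none of them called. In the tight junction list of 29 genes, 2 were called higher and 3 lower (2.37% and 6.51% of all genes tested), 1 and 0 of them under all 5 scalings; without 1 library 0 to 1 were higher and 1 to 7 lower, the 7 without dDAVP 2. Of its 10 claudins, Cldn2 and Cldn8 were called higher and Cldn1 and Cldn9 lower. Cldn8 (279 to 296 TPM in control and 341 to 377 TPM with dDAVP) and Cldn1 (6.04 to 6.85 TPM and 3.29 to 3.57 TPM) were not called under all 5 scalings and kept the call in 0 and 1 of the 6 fits without a library. Cldn2 was higher (1.74 to 3.31 TPM and 5.82 to 6.72 TPM; not called in 4 of the 6 fits) and Cldn9 lower (213 to 230 TPM and 146 to 151 TPM; not called under all 5 scalings).

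Metallothioneins were among the largest rises at high expression. These small proteins bind zinc and copper and are known to be induced by metals, glucocorticoids and oxidative stress. Mt1 went from 1254, 1602 and 1527 TPM to 5857, 4945 and 5397 TPM (log2 change 1.89 ± 0.11 SE, limma adjusted p = 0.000192) and Mt2 from 133, 166 and 146 TPM to 861, 754 and 849 TPM (log2 change 2.46, adjusted p = 6.38e-05). The endothelial marker sum given above was also higher in every dDAVP library, and its part in any rise was not tested. In the antioxidant list of 29 genes, which holds both, 9 were called higher (2.37% of all genes tested were) and none lower, 6 of them under all 5 scalings (1.96% of all genes), and the median was 0.41 above that of all genes. At an unadjusted p under 0.05, 17 were higher and 2 lower, against 4179 of 13494 genes tested in either direction. Leaving out 1 library left 5 to 9 higher, with 5 without control 2, control 3, dDAVP 1 or dDAVP 3. Gsta4, a glutathione transferase for lipid aldehydes, rose from 39.6, 51.2 and 46.4 TPM to 123, 110 and 108 TPM. Gpx1, a glutathione peroxidase, rose from 567, 706 and 727 TPM to 1337, 1141 and 1243 TPM, and Srxn1, which repairs oxidised peroxiredoxins, from 42.8 to 44.7 TPM to 67.5 to 71.0 TPM. These 3 and the metallothioneins kept the call with each library left out. With the replicate block Gpx1 and Srxn1 lost theirs (limma adjusted p = 0.0591 and 0.0653). Gclc, the catalytic subunit of glutathione synthesis, rose by 0.41 on the log2 scale and kept the call in 2 of the 6 fits without a library. Nqo1 (0.22, adjusted p = 0.0836), Hmox1 (0.61, adjusted p = 0.122) and Txnrd1 (0.09, adjusted p = 0.599), classical targets of the factor NRF2, did not pass the limma test.

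Glucocorticoid-responsive genes, in cells that all had dexamethasone, split as well. Of 18 tested, 4 were called higher (Cebpd, Mt2, Mt1 and Nfkbia) and 2 lower (Dusp1 and Klf9), against 2.37% and 6.51% of all genes tested. Under all 5 scalings 3 were higher and 1 lower, and Nfkbia and Klf9 each kept the call in 1 of the 6 fits without a library. Tsc22d3 (871 to 916 TPM in control and 967 to 1077 TPM with dDAVP; log2 change 0.18, limma adjusted p = 0.115), Sgk1 (0.05, adjusted p = 0.716) and Per1 (-0.14, adjusted p = 0.773) did not pass. Of 25 genes of zinc, copper, iron and calcium transport, 4 were called higher and 2 lower (2.37% and 6.51% of all genes tested); without 1 library 0 to 4 were higher and 0 to 6 lower, the highest counts without dDAVP 2. Of the zinc importers, Slc39a4 rose from 2.15 to 4.38 TPM to 7.37 to 9.76 TPM and Slc39a14 from 92.0 to 112 TPM to 157 to 241 TPM, while Slc39a10 and Slc39a6 were called lower in the deposited TPM but not under all 5 scalings, and Slc39a1 had a log2 change of -0.11 (limma adjusted p = 0.666). Each of the 4 called importers lost its call in at least 4 of the 6 fits without a library.

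In the list of epithelial defence genes, 7 rose. Of 15 tested, 7 were called higher (2.37% of all genes tested were) and none lower, all 7 under all 5 scalings (1.96%). The list's median was 0.64 above that of all genes. At an unadjusted p under 0.05, 8 were higher and 2 lower, against 4179 of 13494 genes tested in either direction. Leaving out 1 library left 4 to 6 called higher, with 4 without control 2 or control 3. C3, the central complement component, rose from 37.2, 30.9 and 29.6 TPM to 106, 159 and 107 TPM (log2 change 1.88 ± 0.17 SE, limma adjusted p = 0.00167). The neighbouring gasdermin C genes, near-identical copies whose reads the counting may have split among them, were all higher: Gsdmc2 from 13.2 to 15.0 TPM to 47.0 to 60.1 TPM, Gsdmc4 from 7.60 to 8.61 TPM to 21.9 to 24.8 TPM, and Gsdmc3 from 4.02 to 4.90 TPM to 10.1 to 13.7 TPM. Muc4, a membrane mucin, rose from 8.31 to 12.9 TPM to 20.5 to 31.0 TPM, and the cytokine Il18 from 3.40 to 3.72 TPM to 6.77 to 11.0 TPM. Muc4 lost the call without control 2 or control 3, and Il18 kept it in 1 of the 6 fits without a library. Of 30 NF-kB targets and chemokines, 4 were called higher and 1 lower (2.37% and 6.51% of all genes tested); without 1 library 2 to 4 were higher and 0 to 4 lower, the 4 without dDAVP 2. Cxcl5 rose from 0.60 to 0.95 TPM to 3.57 to 4.18 TPM and Cxcl1 from 36.4 to 41.5 TPM to 55.7 to 66.6 TPM; both attract neutrophils, and Cxcl1 lost the call without control 2 or dDAVP 3. Tmprss4, a membrane serine protease, rose from 26.4, 30.7 and 25.0 TPM to 105, 113 and 109 TPM (log2 change 1.96, adjusted p = 9.52e-05).

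**Figure D2:**
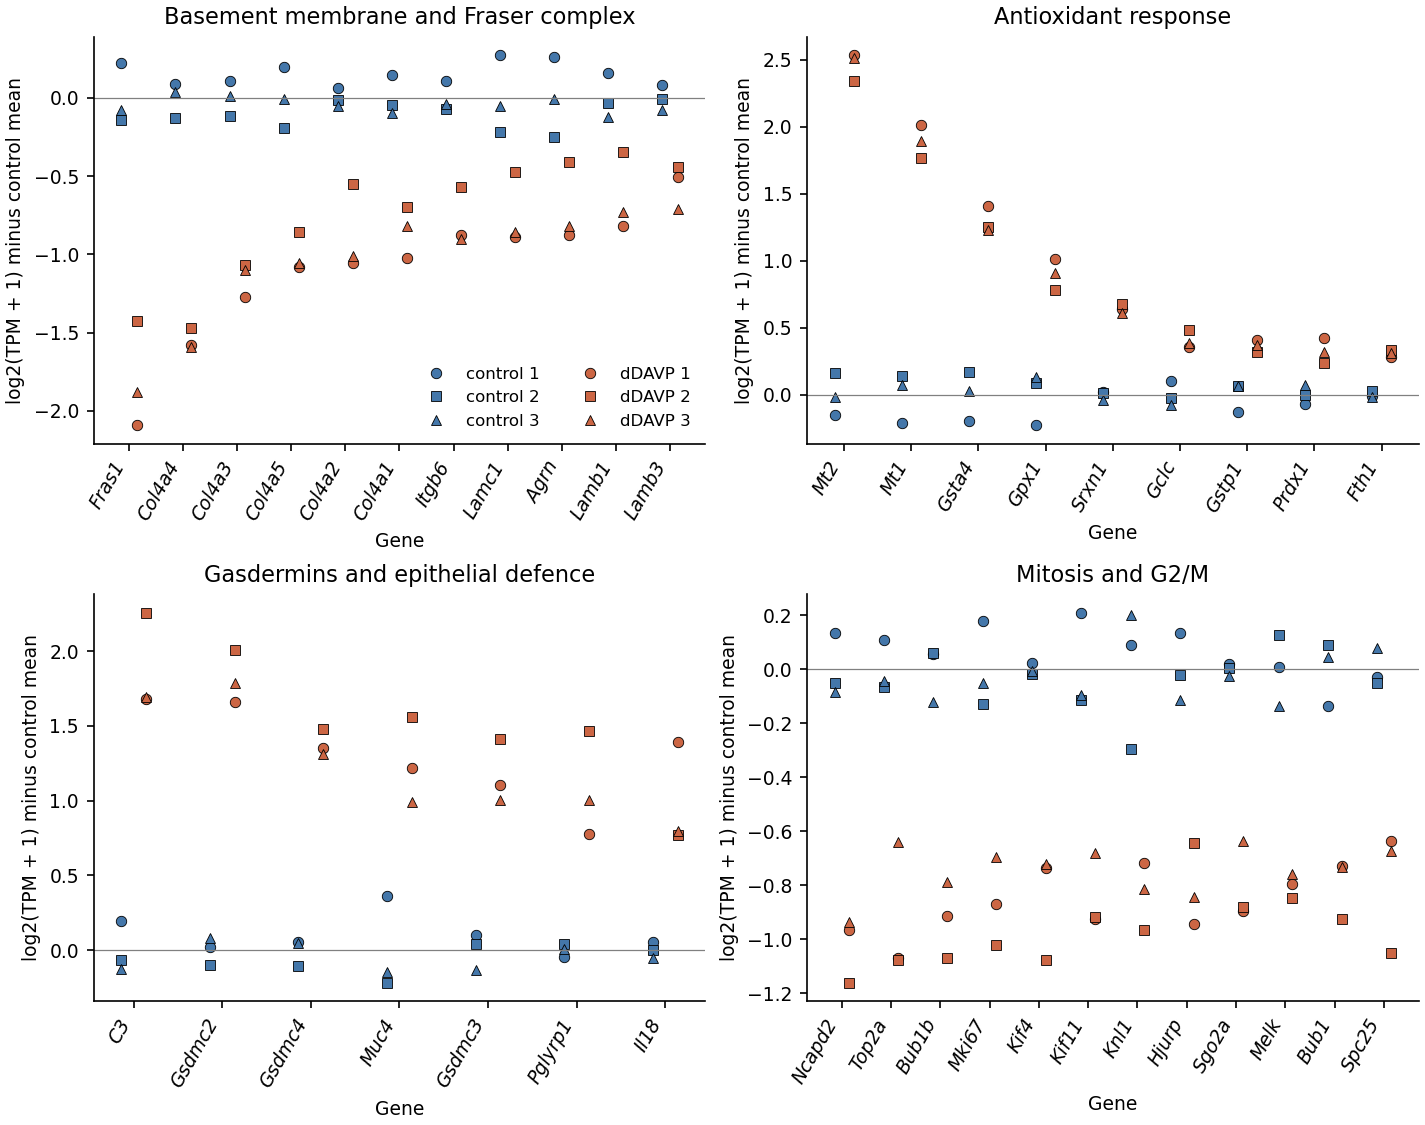
log2(TPM + 1) minus the mean of the 3 control libraries for the called genes with the largest changes of 4 lists; each point is 1 library (blue control, red dDAVP). The zero line is the control mean; of the dDAVP libraries, dDAVP 2 (red squares) lies nearest to it for every basement membrane gene shown and is the lowest for most mitosis genes.

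Fras1 and 5 collagen IV genes fell. Of 30 basement membrane and Fraser complex genes tested, 12 were called lower and none higher by limma (6.51% of all genes tested were called lower). Of these, 8 were called under all 5 scalings (1.59% of all genes tested). At an unadjusted p under 0.05, 20 were lower and 0 higher, against 4179 of 13494 genes tested in either direction. The list's median was -0.41 against all genes, and -0.22 after the correction by the longest transcript. Fras1, an extracellular matrix protein of the Fraser complex that links epithelium to the underlying matrix, went from 47.4, 36.6 and 38.3 TPM to 8.75, 14.4 and 10.3 TPM (log2 change -1.80 ± 0.18 SE, limma adjusted p = 0.00276). Its partner Frem2 was at 25.1 to 42.0 TPM in control and 10.9 to 22.3 TPM with dDAVP (log2 change -1.06, adjusted p = 0.0531). Collagen IV, the sheet-forming collagen of basement membranes, fell in 5 of its chains. Col4a4 went from 18.6, 15.8 and 17.9 TPM to 5.16, 5.65 and 5.09 TPM (log2 change -1.55, adjusted p = 0.000639), Col4a3 from 4.09 to 4.93 TPM to 1.28 to 1.63 TPM, and Col4a5 from 25.0 to 33.1 TPM to 13.0 to 15.4 TPM. The more widespread chains Col4a1 (15.6 to 18.6 TPM and 7.73 to 9.97 TPM) and Col4a2 (7.31 to 8.01 TPM and 3.14 to 4.87 TPM) were also lower in every dDAVP library. Itgb6, an integrin subunit, fell from 62.5 to 70.7 TPM to 34.6 to 43.9 TPM. Fras1, Col4a4 and Col4a5 kept their calls with each library left out. With the replicate block Col4a5 lost its call (limma adjusted p = 0.0659). Col4a1 lost it without dDAVP 3 (adjusted p = 0.0504), Col4a3 in 4 and Col4a2 in 5 of the 6 such fits. Without 1 library the list had 5 to 20 called lower, 20 of them without dDAVP 2 and 5 without dDAVP 3. Many of these genes are long, and the list is taken up again with transcript length.

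Most genes of DNA replication and mitosis fell by count of calls in the deposited TPM, and fewer under all 5 scalings. Of 61 S phase genes tested, 42 were called lower (6.51% of all genes tested were) and none higher, and 57 were lower in every dDAVP library than in every control library (28.7% of all genes tested were). Of 68 mitosis genes, 44 were called lower and none higher, and 61 did not overlap. No member of either list was higher at an unadjusted p under 0.05, against 57 S phase and 62 mitosis genes that were lower. Of all 13494 genes tested, 4179 passed that threshold in either direction. The medians against all genes were -0.31 and -0.47, and 16 and 12 genes were called lower under all 5 scalings (1.59% of all genes tested). Without 1 library the S phase list had 14 (without control 3) to 41 called lower and the mitosis list 12 (without control 3) to 46, with the highest counts without dDAVP 2. Uhrf1, which guides maintenance methylation of DNA, fell from 148, 138 and 143 TPM to 79.8, 85.8 and 75.9 TPM (log2 change -0.83 ± 0.08 SE, limma adjusted p = 0.00167), and Dtl, an adaptor of a ubiquitin ligase at replication forks, from 87.2, 73.6 and 71.9 TPM to 38.0, 44.6 and 43.1 TPM. Ncapd2, a condensin subunit, fell from 114, 99.6 and 97.3 TPM to 52.3, 45.6 and 53.5 TPM (log2 change -1.02, adjusted p = 0.00195). Top2a, the mitotic topoisomerase, fell from 94.8 to 107 TPM to 46.5 to 63.4 TPM, and Bub1b, of the spindle checkpoint, from 54.7 to 62.2 TPM to 27.9 to 34.1 TPM. With the replicate block Dtl, Top2a and Bub1b lost their calls (limma adjusted p = 0.0653, 0.0645 and 0.0532), and Uhrf1 and Ncapd2 kept theirs. Mki67, a common proliferation marker, fell from 15.2 to 19.0 TPM to 7.69 to 9.90 TPM but was not called under all 5 scalings or without control 3. Other members moved less: Cdk1 was at 412 to 480.3 TPM in control and 264 to 378 TPM with dDAVP (log2 change -0.46, adjusted p = 0.0748), Ccnb1 at 62.3 to 65.7 TPM and 32.9 to 46.4 TPM (called in 1 of the 6 fits without a library), and Pcna at 281 to 297 TPM and 222 to 252 TPM (adjusted p = 0.0646). Of 19 cyclins of G1 and CDK inhibitors, 3 were called lower (6.51% of all genes tested were) and none higher, none of them under all 5 scalings and none in 5 of the 6 fits without a library.

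Promoters of both cell cycle lists carry known motifs, shown here for the 3 members of each list with the largest falls among those called lower under all 5 scalings with a match before the start. For S phase genes the E2F site was searched as TTTGGCGC or TTTCGCGC, and for mitosis genes the cell cycle homology region as TTTGAA or TTCGAA, both on both strands (GCGCCAAA and TTCAAA are matches on the other strand).
Dtl, chr1:191575545-191575582, minus strand: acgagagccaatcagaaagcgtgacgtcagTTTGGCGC
Uhrf1, chr17:56304098-56304165, plus strand: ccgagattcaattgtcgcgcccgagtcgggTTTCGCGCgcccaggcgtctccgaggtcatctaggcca
Pola1, chrX:93632256-93632323, minus strand: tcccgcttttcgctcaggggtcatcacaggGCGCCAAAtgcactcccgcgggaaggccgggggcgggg
Ncapd2, chr6:125191674-125191739, minus strand: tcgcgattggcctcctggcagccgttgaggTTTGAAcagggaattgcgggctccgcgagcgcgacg
Top2a, chr11:99024190-99024242, minus strand: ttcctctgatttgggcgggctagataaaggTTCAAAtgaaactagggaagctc
Bub1b, chr2:118597993-118598058, plus strand: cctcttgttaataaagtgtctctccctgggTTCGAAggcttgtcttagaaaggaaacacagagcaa
Uhrf1 has 2 listed starts, 1 of them with a match. Top2a has 4 matches before its start, of which the 1 nearest to the start is shown. The E2F site was in 15 of the 49 S phase genes with a promoter entry (30.6%) and in 179 of 9434 genes tested (1.90%). The homology region was in 45 of 58 mitosis genes (77.6%) and in 16.2% of genes tested. Among all genes called lower under all 5 scalings the shares were 6.83% and 23.0%, and among those called higher 2.00% and 16.0%. The cell cycle genes are themselves part of the genes called lower.

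Other signalling families had scattered calls. In the Wnt list 3 of 22 genes were called lower (6.51% of all genes tested were) and none higher, all under all 5 scalings (1.59%): the ligand Wnt9a (26.5 to 28.0 TPM and 13.4 to 15.3 TPM), the receptor Fzd2 (14.7 to 17.0 TPM and 8.23 to 8.78 TPM) and the coreceptor Lrp5 (16.2 to 17.8 TPM and 8.55 to 11.8 TPM). Wnt9a and Fzd2 kept the call with each library left out, and Lrp5 in 1 of 6 fits. With the replicate block Fzd2 lost its call (limma adjusted p = 0.0721). Without 1 library the list had 2 called lower, or 8 without dDAVP 2. The Notch ligand Jag1 fell from 10.5 to 13.3 TPM to 5.55 to 6.27 TPM, the 1 call among 19 Notch genes (5.26%, against 6.51% of all genes tested called lower), and lost the call without control 2 (limma adjusted p = 0.0508); without dDAVP 2 the list had 4 called lower. Of 31 TGF-beta and BMP genes, 2 were called higher (Id3 and Gdf15) and 2 lower (Smad6 and Ltbp3), each 6.45% of the list against 2.37% and 6.51% of all genes tested. The list's median was -0.13 against all genes, and -0.03 after the correction by the longest transcript. Of these 4 genes Id3 was called under all 5 scalings; the other 3 kept the call in 1 of the 6 fits without a library. The number lower was 5 without dDAVP 2 and 0 in the other 5 fits. Id3, a target of BMP signalling that inhibits helix-loop-helix factors, rose from 73.9, 74.4 and 78.0 TPM to 176, 150.5 and 156 TPM (log2 change 1.08 ± 0.08 SE, limma adjusted p = 0.00066). The EGF receptor ligand Btc rose from 27.3 to 29.5 TPM to 39.95 to 48.2 TPM, and Dusp10, a phosphatase of stress kinases, from 20.5 to 22.5 TPM to 33.3 to 40.1 TPM. Btc lost the call without control 2, control 3 or dDAVP 3. Ptger1, a prostaglandin E receptor, fell from 69.5 to 84.2 TPM to 33.9 to 48.2 TPM, and lost the call without control 2 or control 3.

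Single genes of metabolic lists changed. Of 36 fatty acid genes tested, 4 were called higher and 1 lower (2.37% and 6.51% of all genes tested). The counts were 3 and 2 of 36 glycolysis and hypoxia genes, and 4 and 3 of 44 lysosome genes. Under all 5 scalings 3, 2 and 3 were higher and none lower. Without 1 library, 1 to 4, 1 to 3 and 1 to 3 were higher and 0 to 4, 0 to 5 and 0 to 4 lower. Dgat2, which makes triglycerides, rose from 16.0, 16.1 and 15.3 TPM to 34.9, 35.9 and 30.5 TPM (log2 change 1.04 ± 0.09 SE, limma adjusted p = 0.00165), and Ndrg1 from 225, 223 and 178 TPM to 397, 492 and 413 TPM (log2 change 1.05). The glycolytic enzyme Aldoa rose from 700 to 763 TPM to 976 to 1001 TPM, and the lysosomal protease Ctsd from 598 to 658 TPM to 1025 to 1127 TPM. Aldoa lost the call without dDAVP 3 (limma adjusted p = 0.0515). Chac1 (179 to 187 TPM and 249 to 273 TPM) and Sesn2 (34.2 to 38.9 TPM and 60.4 to 79.6 TPM), both targets of the integrated stress response, rose among 6 of 41 such genes (2.37% of all genes tested rose), and these 2 were the calls under all 5 scalings. Leaving out 1 library left 1 to 3 of the 41 called higher (and 3 lower without dDAVP 2), the 1 without control 3, where Sesn2 had an adjusted p of 0.0507 (limma). None of 32 genes of cholesterol synthesis and uptake was called by limma in the deposited TPM (3 higher and 5 lower at an unadjusted p under 0.05), whereas 5 were called higher after the length and GC correction (4.53% of all genes tested were), 2 with median-ratio scaling (3.34%) and 1 with quantile normalization (3.25%). None of 21 tRNA synthetases and none of 40 proteasome genes was called by limma (1 and 3 at an unadjusted p under 0.05). Over all genes tested, 4179 of 13494 passed the unadjusted threshold used for these lists and the cholesterol list, in either direction. Without dDAVP 2, the cholesterol list had 2 called higher and 1 lower, the tRNA synthetases 1 lower and the proteasome 2 higher.

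Changes moved with transcript length, which bears on each list above. By the longest annotated transcript of each gene, the median log2 change was 0.09 for 1835 genes under 1 kb, -0.02 for 2287 genes of 1 to 2 kb, -0.16 for 4934 genes of 2 to 4 kb, -0.28 for 3649 genes of 4 to 8 kb and -0.36 for 607 genes over 8 kb. The share of genes called lower was 0.708% under 1 kb and 9.67% at 4 to 8 kb, and the share called higher was 5.33% at 1 to 2 kb and 0.165% over 8 kb. Across 13312 genes the rank correlation of change with length was -0.38 for the longest and -0.26 for the median transcript, a description in which all genes share the same 6 libraries. GC content had a rank correlation of 0.04. Median-ratio scaling moved all bins up together and left the difference between them, with a median of 0.23 under 1 kb and -0.20 over 8 kb. The correction by median transcript length took its own correlation to 0.00 but left -0.24 with the longest transcript.

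**Figure D3:**
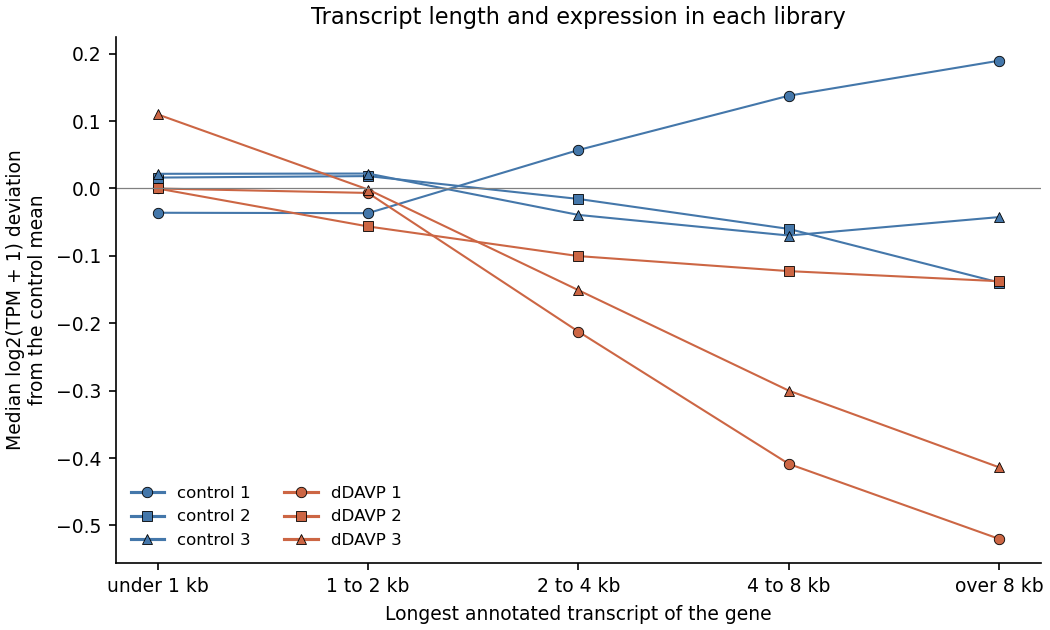
Median log2(TPM + 1) deviation from the control mean (vertical axis) of genes grouped by their longest annotated transcript (horizontal axis), 1 line per library. dDAVP 1 and dDAVP 3 drop to -0.52 and -0.41 over 8 kb and control 1 rises to 0.19, while dDAVP 2 and control 2 both end at -0.14.

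Libraries of the same group differed in the length pattern. Over 8 kb the median deviation from the control mean was 0.19 in control 1, -0.14 in control 2 and -0.04 in control 3, and -0.52, -0.14 and -0.41 in dDAVP 1, 2 and 3. Control 2 and dDAVP 2 therefore had the same value for the longest genes. The difference between genes of at least 4 kb and genes under 1 kb (median transcript) was -0.26 between the groups, with a spread between replicates of 0.13 (SD pooled over both groups). It ran from -0.33 without dDAVP 2 to -0.18 without control 1. RNA quality values were not used here, and the part of length in the calls was not tested beyond the corrections given here.

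**Figure D4:**
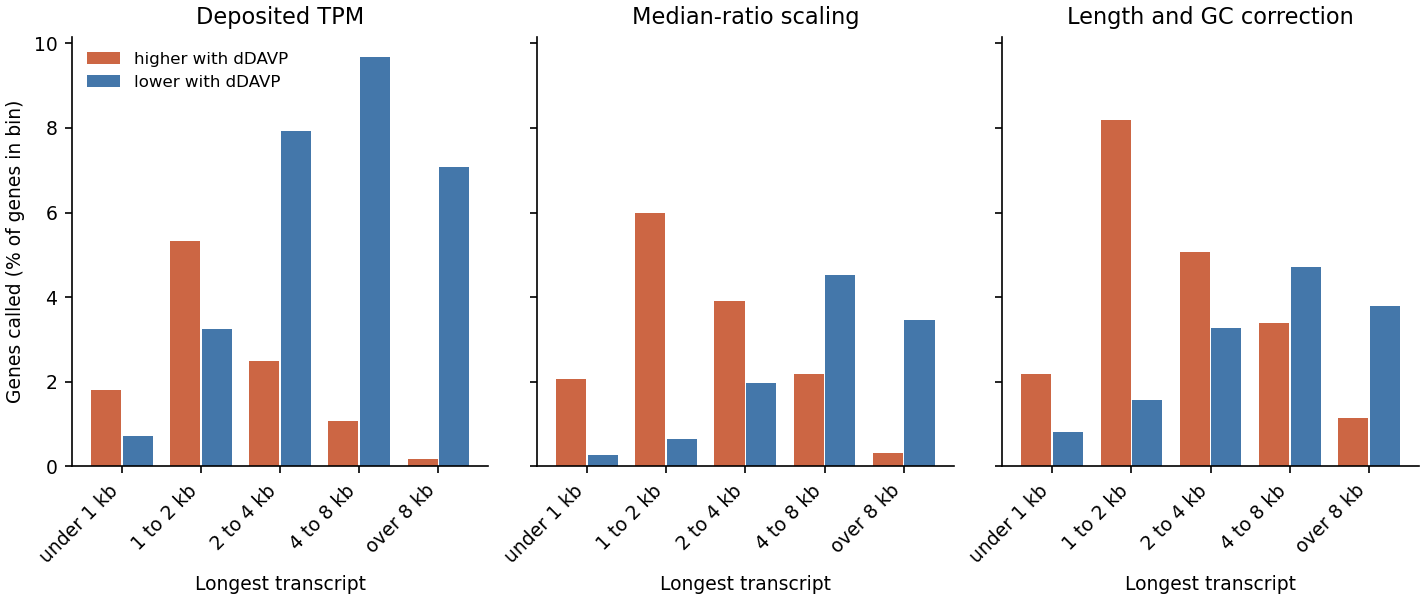
Share of genes called higher (red) and lower (blue) with dDAVP in each bin of the longest transcript (horizontal axis), in percent of genes in the bin, for the deposited TPM, median-ratio scaling and the length and GC correction by median transcript. In the deposited TPM the share called lower is 0.708% under 1 kb and 9.67% at 4 to 8 kb; after the correction it is 0.817% and 4.71%.

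Ribosomal, mitochondrial and very long genes differed between libraries of the same group. The 81 cytosolic ribosomal protein genes had a median of 0.41 above all genes, with 3 called higher (2.37% of all genes tested were) and none lower, and none called under all 5 scalings. That median was 0.18 with quantile normalization and 0.23 after the correction by the longest transcript. Leaving out any 1 library but dDAVP 2 left 0 of the 81 genes called, and leaving out dDAVP 2 gave 9. By library their median against all genes was -0.29, 0.13 and 0.14 in the control libraries and 0.67, 0.14 and 0.44 in the dDAVP libraries, so dDAVP 2 lay beside control 2 and control 3. The 75 nuclear genes of oxidative phosphorylation had a median of 0.35 above all genes (1 called higher, and 5 without dDAVP 2) and were at -0.23, 0.07 and 0.16 in control and 0.61, 0.10 and 0.36 with dDAVP, with overlapping groups. Their median above all genes was 0.17 both with quantile normalization and after the correction by the longest transcript. The 78 mitochondrial ribosomal proteins were 0.26 above all genes (2 called higher, 2.56% against 2.37% of all genes tested, and 4 without dDAVP 2), with overlapping groups. They were 0.19 above with quantile normalization and 0.17 after the correction by the longest transcript. The 47 chromatin and transcription regulators picked for their great length were at -0.25 against all genes, and at -0.05 after the correction by the longest transcript. Of them 2 were called lower (4.26% against 6.51% of all genes tested), and 0 to 12 without 1 library, the 12 without dDAVP 2. By library they were at 0.16, -0.23 and 0.02 in control and -0.42, -0.05 and -0.32 with dDAVP, again overlapping. The mitosis list was at -0.04, 0.01 and 0.05 in control and -0.38, -0.73 and -0.32 with dDAVP, and epithelial defence at 0.03, 0.01 and -0.09 and at 0.55, 0.86 and 0.86. The basement membrane list was at 0.10, -0.08 and -0.05 in control and -0.47, -0.16 and -0.56 with dDAVP, the dDAVP 2 value being the nearest to the controls.

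**Figure D5:**
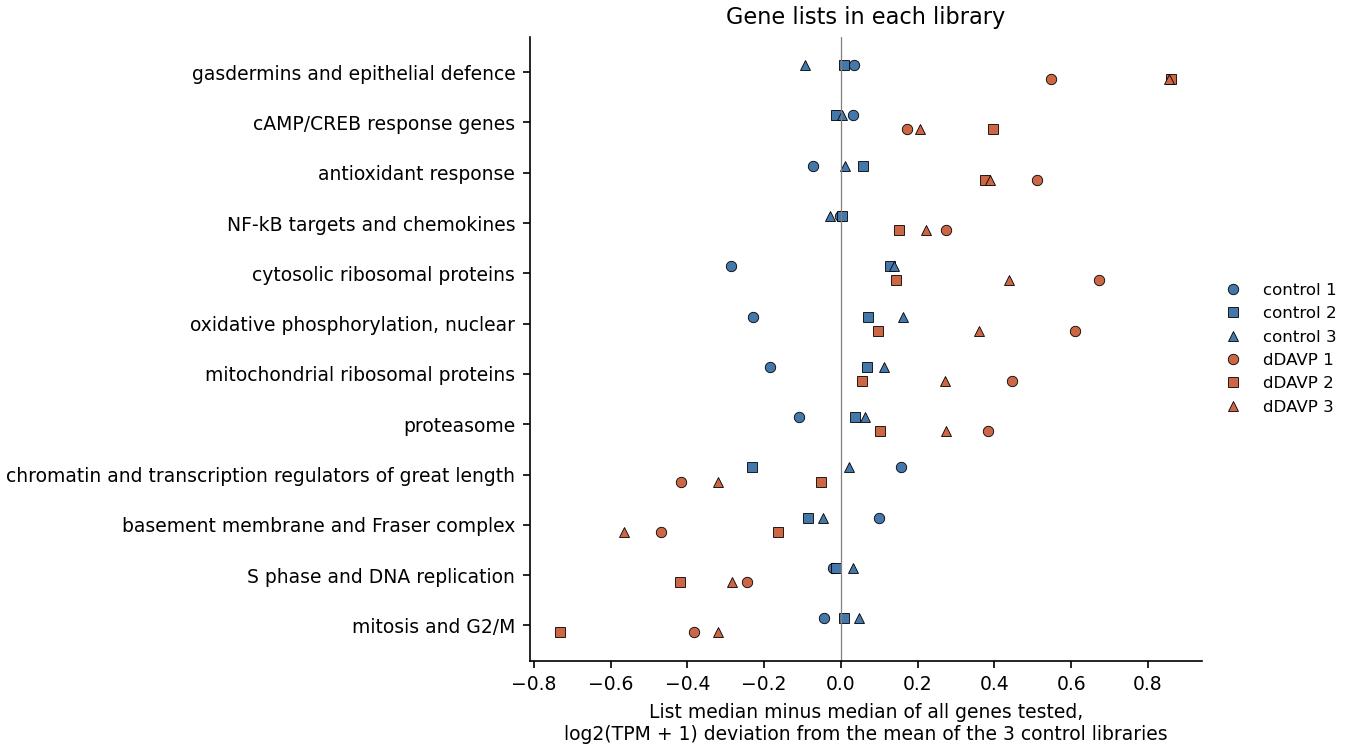
Median log2(TPM + 1) deviation from the control mean of 12 gene lists, minus the same median over all genes tested, in each library (blue control, red dDAVP). The S phase and mitosis lists lie below every control library in each dDAVP library, whereas for oxidative phosphorylation and mitochondrial ribosomal proteins dDAVP 2 lies among the controls.

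The lists were also compared with all genes of the same length bin. All 32 S phase genes of 2 to 4 kb lay below the median change of all genes in that bin (list -0.48, bin -0.16), and 15 of 18 did at 4 to 8 kb. All 34 mitosis genes of 2 to 4 kb lay below it (list -0.59, bin -0.16). Of 9 basement membrane genes over 8 kb, 8 lay below the bin's median (list -0.80, bin -0.36), and of 18 at 4 to 8 kb, 13 did (list -0.44, bin -0.28). Of 14 antioxidant genes of 2 to 4 kb, 12 lay above it (list 0.19, bin -0.16). The 36 ribosomal protein genes under 1 kb also all lay above theirs (list 0.25, bin 0.09), as did all 11 at 2 to 4 kb (list 0.28, bin -0.16). Of 35 chromatin and transcription regulators over 8 kb, 24 lay below the bin's median and 11 above it (list -0.42, bin -0.36).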

How the data were processed

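Libraries came from 1 ng RNA amplified by SMART-Seq HT over 11 PCR cycles, were tagged with Nextera XT and read paired-end at 50 bp, per the labels' protocols; the submitters' processing notes name STAR and RSEM, and versions, genome build and annotation are not given in the sources used here. The authors deposited TPM per gene and library, with group means and a ratio for each comparison; the deposited ratios and the column of maxima were not used. The deposited mean equalled the mean of the libraries in 100% of lines (tolerance 0.011 TPM). Of 55415 lines, 980 sharing 79 symbols were summed, leaving 54514 entries. TPM keep no depth, so no count test, interval or detection floor was used.

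Groups came from sample labels. limma 3.58.1 (R 4.3.3) was fitted to log2(TPM + 1) for genes averaging 1 TPM or more in the 6 libraries, with a mean-variance trend; changes of low genes are understated by the pseudocount of 1. An adjusted p under 0.05 is a call. The fit was tested on simulated data. The length and GC correction fitted splines of 5 degrees of freedom per library to 13312 genes (98.7%) with a GENCODE M21 (GRCm38) length; the build of the files may differ. Promoters are from RefSeq (GRCm38.p6).

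Members and lists were chosen with earlier results of these data known. Named genes are Aqp2, the 10 largest rises and falls among calls that average 5 TPM or more without overlap (provisional symbols passed over), and in each list up to 5 called members with the largest change and its defining members. Akap12, Atf3, Elf3, Frem2, Gclc, Il18, Itgb6, Jun, Krt8, Pcna, Pola1, Prkaca, Prkar1a, Rasd1, Sgk1 and Txnrd1 fall outside this rule and were chosen after their values were seen. Alternatives were another pseudocount, filters, scalings, moderation, a genes-detected covariate, the replicate block, all 22 libraries and leaving out each library; correction by the longest transcript and the all-5 rule were chosen after seeing the data. Replicate numbers occur in both groups, but same-numbered libraries did not deviate together. Some list members are counted but not reported here by name.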

Additional observations from a re-analysis of the deposited data

How the results depend on the processing

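Aqp2 kept its call in every alternative, with log2 changes of 5.30 to 5.57. The count of called genes (1198, of which 26.7% were higher) moved to 442 with every gene above 0 TPM tested, 757 with median-ratio scaling, 691 without the mean-variance trend, 2694 with a covariate for genes detected per library and 779 with all 22 libraries in the fit; it ran from 314 to 2038 with each library left out. The share higher was 41.6% with any TPM above 0 and with all 22 libraries, 59.6% with median-ratio scaling and with the longest-transcript correction, 54.1% with quantile normalization and 59.8% with the length and GC correction, and 18.3% to 48.7% with each library left out. Of the 1593 list members tested, 271 were called (8.88% of all genes tested were). With the marker genes counted in (1597 tested), the count was 159 without the trend and 509 with the covariate. It was 127 of 1917 tested with any TPM above 0, and 89 to 394 with each library left out. The cause was not tested.

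Of 55 list medians against all genes, 15 changed sign under at least 1 of the other 4 scalings. The medians listed here lay farther from 0 than their spread between libraries and moved by more than it; the desmosome and keratin list, nearer to 0, went from 0.0164 to -0.175 with quantile normalization. The gene Slc16a1 had a log2 change of 0.33 after the length and GC correction and of -0.01 in the deposited TPM. With any TPM above 0, list medians against all genes became -0.137 for vesicle traffic, -0.0434 for actin regulators, -0.0267 for p53 targets, -0.0995 for fatty acid genes, -0.0797 for glycolysis, -0.0195 for tRNA synthetases, -0.0045 for lysosome genes and -0.0071 for amino acid transporters. With quantile normalization they became -0.107 for actin regulators, -0.014 for glycolysis and -0.0519 for mitochondrially encoded transcripts. With the length and GC correction they became -0.0021 for vesicle traffic and 0.0157 for tight junctions, and with the longest transcript 0.0133 for tight junctions and 0.0143 for the V2 receptor cascade.

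Replicate numbers are shared by both groups. Same-numbered libraries had correlations of -0.21, -0.03 and -0.11 of their deviations, and 0 of 6 libraries correlated best with its own number. With 3 libraries a group, these correlations cannot exclude that same-numbered libraries shared a batch, and the labels do not say. With the replicate block 122 genes were called, 80.3% of them higher, and 31 list members, 23 higher and 8 lower. Of the 183 called named genes other than Aqp2, 36 kept their call with the block. Besides Aqp2, 34 of the 183 called named genes kept their call in every alternative and none reversed. TPM keep no depth, so low genes have no counting error here, and 3 libraries a group limit every test.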
